A study of Mus musculus with 32 samples.

Results

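Fatty acid oxidation and the targets of the peroxisome proliferator-activated receptors (PPARs) were followed through 34 genes in 3 leg muscles of mice carrying a mutation of Gne. The members were given as a list of gene symbols, drawn up with earlier results of these data known, and all 34 are among the 48586 genes with counts, of 54838 genes listed. By role they are 4 genes of fatty acid uptake and activation, 3 of the lipid droplet, 5 of the carnitine shuttle and its control, 9 enzymes of beta-oxidation, 3 of the electron transfer flavoprotein, 6 targets of the PPARs and 4 receptors and coactivators. The muscles were gastrocnemius, quadriceps and tibialis, taken from males no older than 3 months and sequenced as 32 libraries. Gne encodes the key enzyme of sialic acid synthesis, and the knock-in mice carried M743T, a variant known from GNE myopathy, on both alleles. The groups were wild type, knock-in mice that the submitters called healthy and knock-in mice they called sick, with 4 mice stated for each state. There were 4 wild-type, 3 healthy and 3 sick libraries of gastrocnemius, and 4, 4 and 3 of quadriceps and of tibialis. The sources used here give neither the signs that made a mouse sick nor which libraries came from 1 mouse. The p-values therefore reflect only how these libraries vary, which may be partly technical. Gne itself lay between 7.48 and 14.7 CPM (counts scaled to library size) in every library, and counts per gene do not show the mutated base.

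Fatty acids reach muscle from lipoproteins, which lipoprotein lipase cleaves, and from lipid droplets, whose triglycerides are opened by adipose triglyceride lipase. Acyl-CoA made from them enters mitochondria through the carnitine shuttle, where carnitine palmitoyltransferase 1 is the controlled step and malonyl-CoA its inhibitor, and is then shortened by repeated rounds of beta-oxidation. PPARs are nuclear receptors that fatty acids activate. Together with retinoid X receptors and coactivators of the PGC-1 family they raise the transcription of many of these genes in muscle during fasting and endurance exercise.

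Depth ran from 7685164 to 42588233 counts per library (median 15766791), and skeletal fibre markers were high in every library, at 107056 to 215003 CPM over 10 genes. Some libraries stood apart in transcripts of other tissues or fibre types. The 10 kidney tubule markers summed to 55.2 to 74.6 CPM in the 4 wild-type tibialis libraries, led by Kap, a gene of the kidney proximal tubule, at 31.1 to 41.8 CPM. They summed to 0 to 1.71 CPM in the other tibialis libraries, where 3 of the 10 had no read in the healthy and 4 no read in the sick group. Any comparison with wild-type tibialis therefore has these transcripts on 1 side only, and they and the state cannot be told apart. Healthy gastrocnemius replicate 2 held 23.4 CPM of them. In quadriceps, healthy knock-in replicate 4 held 432 CPM of Ucp1, the uncoupling protein of brown fat, against at most 3.66 CPM in any other library. The 10 adipocyte markers of that library summed to 6450 CPM, the highest sum among the 32. Adipoq, 1 of these markers, was at 191 CPM there and at most 63.2 CPM in any other library. The 8 slow-fibre markers summed to over 2000 CPM in 4 gastrocnemius libraries, namely wild-type replicate 1, healthy replicate 2 and sick replicates 1 and 3 (2517 to 7054 CPM), and to at most 628 CPM elsewhere. Alb, the albumin gene of liver, was at 83.4 CPM in healthy tibialis replicate 1, 52.4 in wild-type quadriceps replicate 1 and 34.5 in healthy gastrocnemius replicate 2, and at most 0.458 in any other library.

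**Figure D1:**
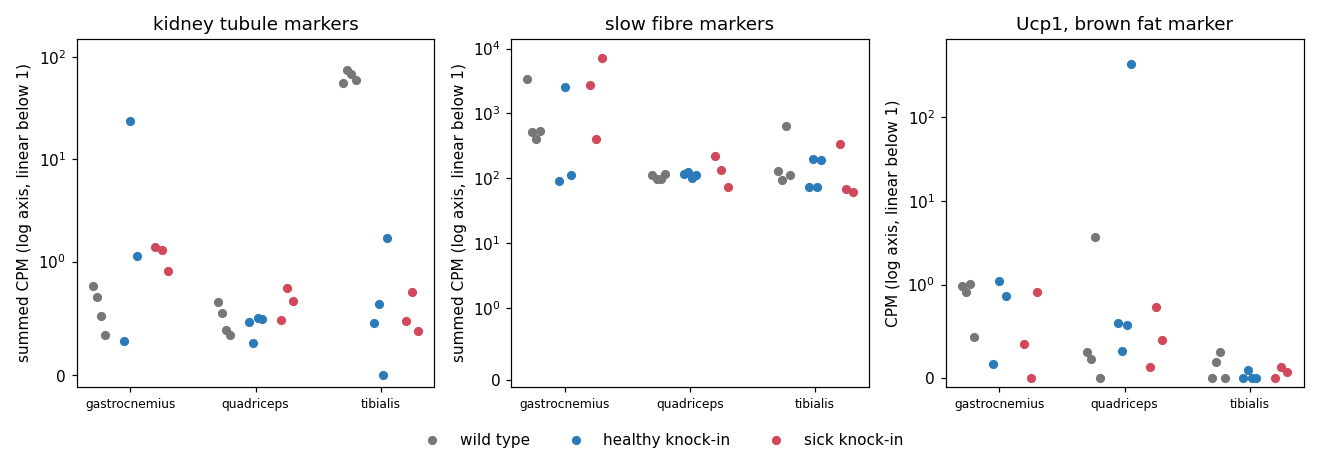
Summed CPM of 10 kidney tubule markers (left) and 8 slow-fibre markers (middle), and CPM of Ucp1 (right), with 1 point per library by muscle and state, on log axes that are linear below 1. The 4 wild-type tibialis libraries lie at 55.2 to 74.6 CPM of kidney markers, and 1 healthy quadriceps library at 432 CPM of Ucp1.

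Promoter sequences of Plin2, Ucp3 and Etfa are shown as examples of an upstream match to a receptor element. PPARs with their retinoid partner bind direct repeats of a hexamer with 1 base between, searched here as AGGTCANAGGTCA on both strands with at most 2 mismatches. RefSeq windows (GRCm38.p6) of 250 bases before to 50 bases after a start were found for 28 of the 34 members, in 30 windows. A match was present in 5 of these 30 windows and in 3.86% of all 32851 windows, and no member window matched with fewer than 2 mismatches. The following stretches lie upstream of the start on the strand of the gene, with the match in capitals, for Plin2 (a coat protein of lipid droplets, chr4:86670248-86670308, minus strand, match from base -225), Ucp3 (the muscle uncoupling protein, chr7:100472916-100472976, plus strand, match from base -51) and Etfa (the alpha subunit of the electron transfer flavoprotein, chr9:55512284-55512344, minus strand, match from base -77).
Plin2: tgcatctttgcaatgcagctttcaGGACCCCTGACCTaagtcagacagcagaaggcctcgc
Ucp3: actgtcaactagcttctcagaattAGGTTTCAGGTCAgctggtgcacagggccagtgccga
Etfa: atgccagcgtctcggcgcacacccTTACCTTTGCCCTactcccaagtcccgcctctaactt
In Plin2 and Etfa the match reads on the opposite strand and in Ucp3 on the strand of the gene. The other matches, not shown, were upstream of the start in Cd36 (from base -63) and after it in Slc25a20. Hadha and Hadhb, which encode the alpha and beta subunits of the mitochondrial trifunctional protein, start head to head on chromosome 5, and the 85 bases between them (chr5:30155163-30155247, plus strand, shown because both subunits share this stretch) read as follows.
Hadha and Hadhb: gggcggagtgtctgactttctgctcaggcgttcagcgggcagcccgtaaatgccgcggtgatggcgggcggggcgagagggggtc
A match is a description of letters and not a binding site.

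In wild-type muscle the levels per kilobase of exon ranged over more than 3 orders of magnitude between members. Over the 12 wild-type libraries, Fabp3, the cytosolic fatty acid carrier of muscle, stood at 272 ± 151 CPM per kilobase (mean ± SD) and Pdk4, the kinase that shuts pyruvate dehydrogenase, at 269 ± 116. These first ranks overlapped widely between libraries, as did the next ones, Acadl (long-chain acyl-CoA dehydrogenase) at 134 ± 69.8, Cd36 (fatty acid translocase) at 103 ± 33.0 and Acaa2 (mitochondrial thiolase) at 103 ± 48.2. Pnpla2, which encodes adipose triglyceride lipase, was at 87.9 ± 25.3 CPM per kilobase and Lpl, lipoprotein lipase, at 59.0 ± 20.3. The receptors were low, with Ppard at 4.5 ± 0.504 and Ppara at 2.34 ± 1.47, and of the coactivators Ppargc1a was at 8.08 ± 3.20 and Ppargc1b at 1.85 ± 0.728. At the low end were Cpt1b, the muscle form of carnitine palmitoyltransferase 1, at 1.61 ± 0.280, and Acot1, a cytosolic acyl-CoA thioesterase, at 0.145 ± 0.115. Cpt1b shares exon sequence with Gm44502 on the same strand, and reads that fit both may not have been counted. Acot1 and Acot2 are near copies: 18.4% of the 50-base windows of Acot1 transcripts and 27.6% of those of Acot2 occur in another Acot gene or member, so the split of reads between them is uncertain.

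Among wild-type muscles, tibialis tended to hold the most of these transcripts. In tibialis against quadriceps, 2 of 34 members were called higher at an adjusted p under 0.05, against 3.58% of all 14708 genes tested, and none lower, against 2.09%. The called genes were Acadl (log2 difference 1.26 ± 0.33 SE, adjusted p = 0.0413) and Slc25a20, the carnitine-acylcarnitine carrier (1.03 ± 0.26, adjusted p = 0.0393). The median over the members was 0.66 on the log2 scale, with 31 of 34 above 0, while the median of all genes was 0. With the replicate number as a block, which the data pair here, 6 members were called. Without 1 library the count ran from 0 to 13, and it was 13 without tibialis replicate 4, which was lowest of its group for 27 of 34 members, 9 without quadriceps replicate 4, and 0 without any of the other 6. Against gastrocnemius, no member was called in tibialis (median 0.45, 30 of 34 above 0, 12 at an unadjusted p under 0.05, 2.58% of all genes called) or in quadriceps (median -0.19, 9 of 34 above 0, 2 at an unadjusted p under 0.05, 1.07% called). Limma-trend gave 0 in both as well, while 3 were called in tibialis without tibialis replicate 4 and 1 without gastrocnemius replicate 3. All 4 wild-type tibialis libraries are those with the kidney transcripts. Shares of all genes are at the adjusted threshold and belong to the main model of each comparison. They were not set beside counts of called members with a library left out or in another model, here or later. Such counts are not read as particular to the members. No share was counted at an unadjusted p, here or in later comparisons, so member counts at an unadjusted p have no background beside them.

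**Figure D2:**
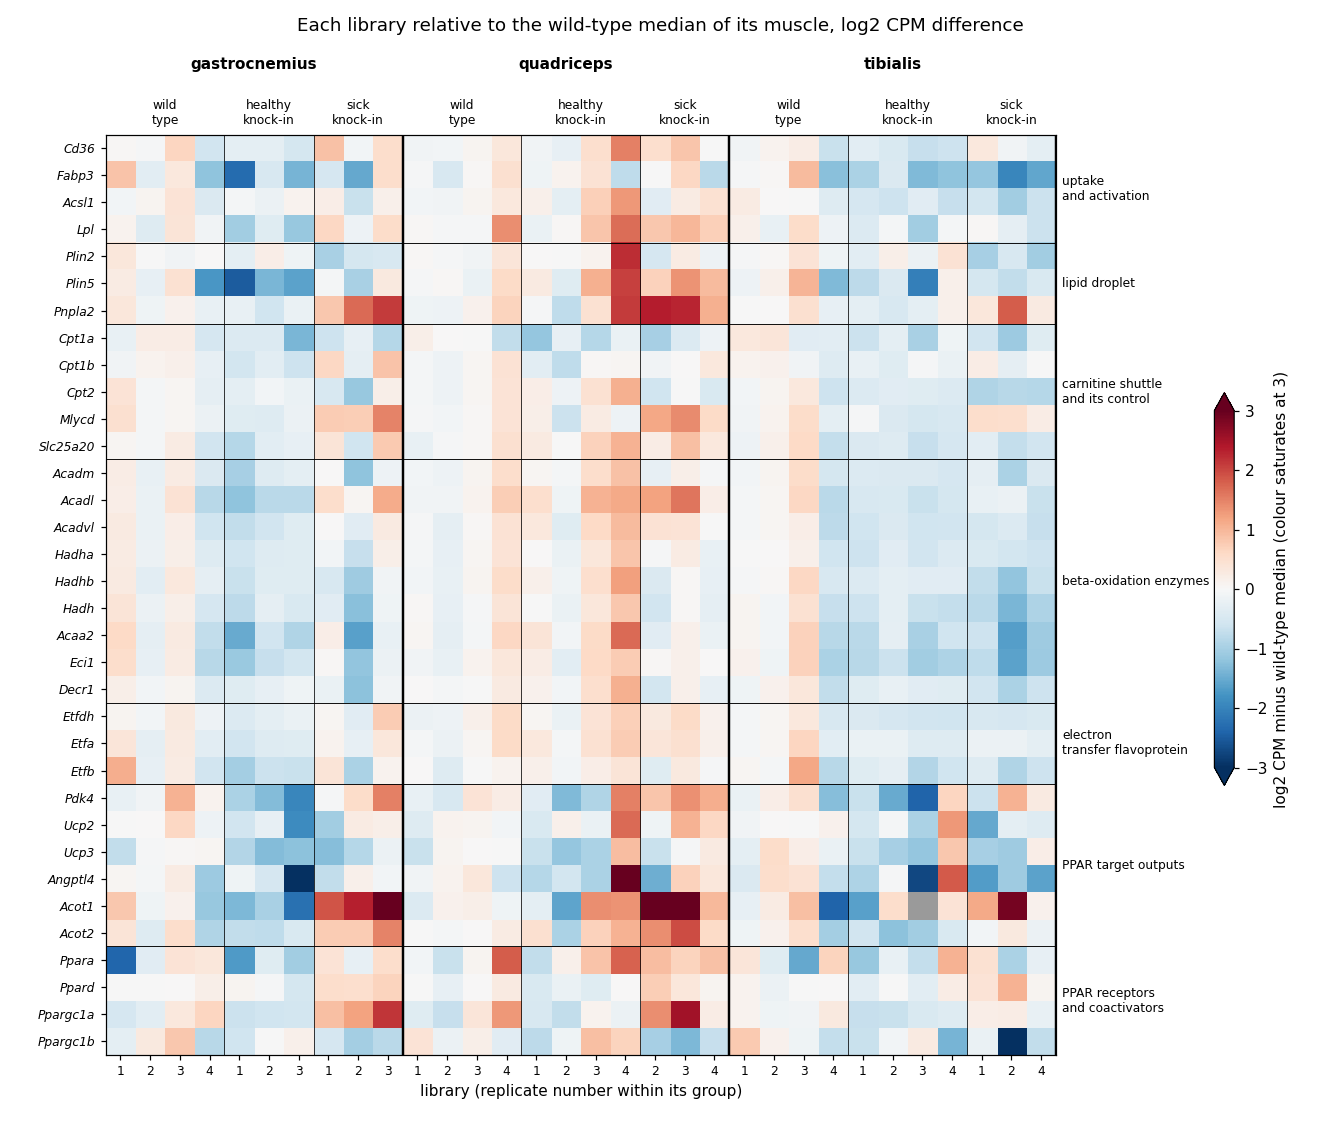
Each member (row, grouped by role) in each library (column), as log2 CPM minus the median of the wild-type libraries of the same muscle; red is higher, blue is lower, and grey marks 1 library with no Acot1 read. Pnpla2 is red in all 9 sick libraries, and most beta-oxidation enzymes are blue in sick tibialis.

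Sick knock-in muscle was compared with wild type to ask which members accompany the sick state. Pnpla2 and Mlycd, whose product malonyl-CoA decarboxylase removes the inhibitor of carnitine palmitoyltransferase 1, were higher in sick gastrocnemius, and Mlycd also in sick quadriceps. In sick tibialis the called members all fell, and 4 of these 8 were beta-oxidation enzymes. By the sign of the fitted log2 fold change alone, 9 members were above 0 in all 3 muscles (Acot1, Acot2, Cd36, Cpt1b, Mlycd, Pdk4, Pnpla2, Ppard and Ppargc1a) and 12 below 0, among them 6 of the 9 beta-oxidation enzymes. The muscles may share mice, so the 3 signs of a member are not independent.

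In gastrocnemius, 4 of 34 members were called higher in sick than in wild-type libraries, against 8.22% of the 14155 genes tested, and 1 lower, against 6.52%. The share of members called was near that of all genes in both directions. The median over members was -0.06 on the log2 scale and that of all genes -0.03. Without 1 library the count of calls was 2 without wild-type replicate 2 or sick replicate 3, 3 without sick replicate 2, and 4 to 6 without any other.

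In quadriceps, 2 of 34 were called higher, against 10.5% of the 13799 genes tested, and 0 lower, against 7.49%. Members at an unadjusted p under 0.05 numbered 8, with no all-gene count at that threshold. The members' median was 0.15, with 22 of 34 above 0. No call remained without sick replicate 2 or 3 or without wild-type replicate 1, 2 or 3, and 7 were made without sick replicate 4. Without the healthy library rich in brown-fat transcripts, which enters this comparison only through the shared estimate of spread, 4 members were called. The counts with libraries left out have no share of all genes beside them.

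In tibialis, 8 of 34 were called lower, against 9.61% of the 14520 genes tested, and 0 higher, against 8.44%. Members at an unadjusted p under 0.05 numbered 16, with no all-gene count at that threshold. Here the share of members called lower was above that of all genes, and the members' median was -0.49 with 25 of 34 below 0, against -0.05 for all genes. The count of lower calls was 15 without wild-type replicate 4, 2 without sick replicate 2, 4 or 5 without another wild-type library, 7 without sick replicate 1 and 6 without sick replicate 4, where Ppard was called higher (0.735, adjusted p = 0.0381). A model of sick and wild-type libraries alone called 1 member, Plin2. No share of all genes from the same models stands beside these counts. Eci1, Fabp3 and Acaa2 were not called without a filter, nor Acsl1, Plin2 and Acaa2 in a model of all 32 libraries. All 9 of the kidney markers that could be tested were called lower in the sick group.

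**Figure D3:**
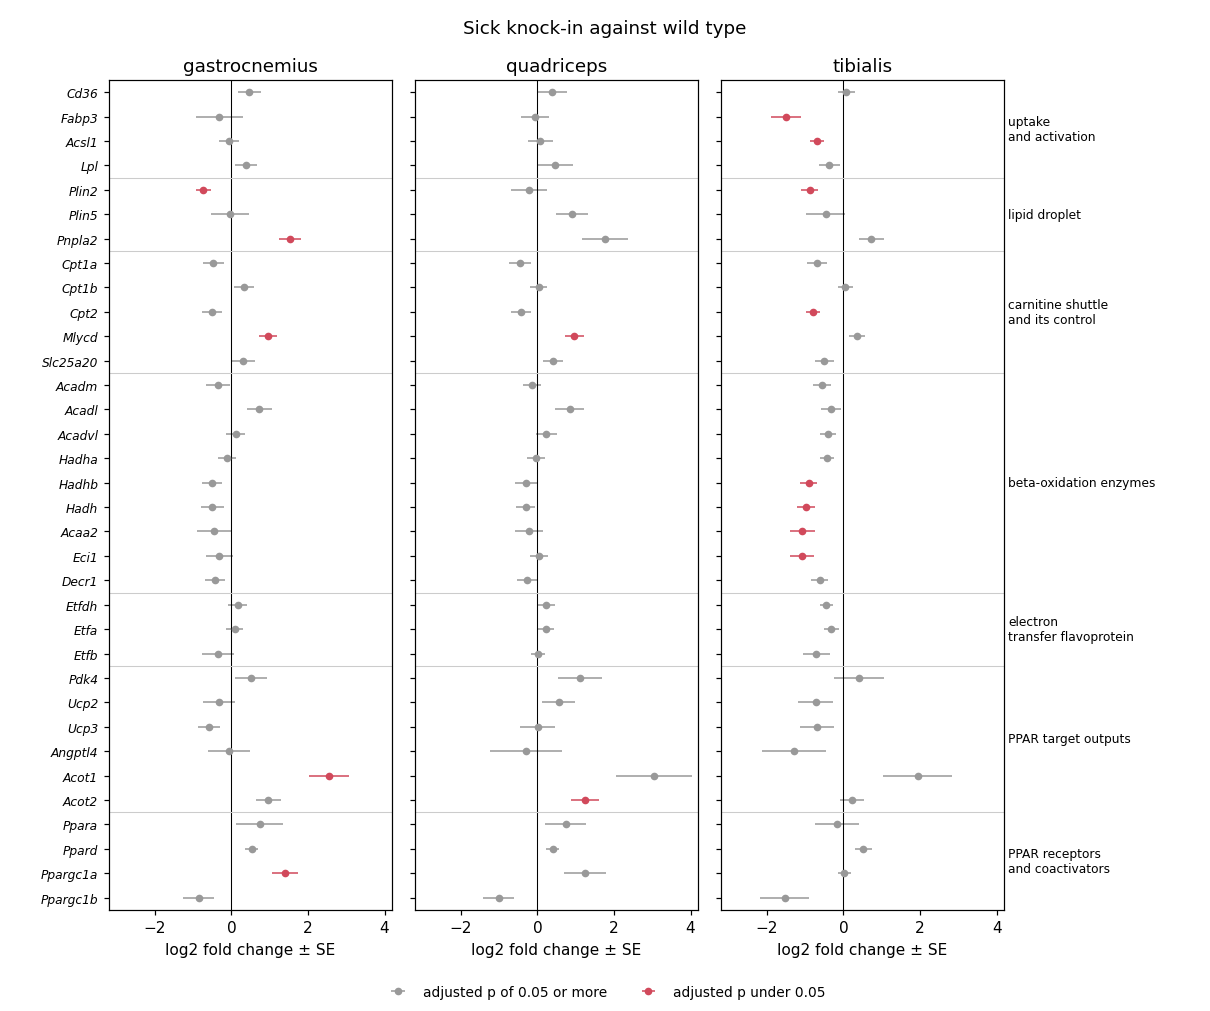
Log2 fold change with its standard error for each member, sick knock-in against wild type, in gastrocnemius, quadriceps and tibialis; red points passed an adjusted p of 0.05. Red points lie to the right in gastrocnemius and quadriceps, apart from Plin2, and to the left in tibialis, where all 9 beta-oxidation enzymes are below 0.

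In the lipid droplet group, Pnpla2 rose in gastrocnemius, a call kept in all alternatives run. Its level was 296, 213, 256 and 200 CPM in wild-type gastrocnemius and 409, 756 and 1002 CPM in sick gastrocnemius. Each sick library was above each wild-type library, with a log2 fold change of 1.53 ± 0.29 and an adjusted p of 0.00919. In quadriceps the wild-type libraries stood at 180, 177, 214 and 309 CPM and the sick ones at 1004, 954 and 412 CPM. The groups did not overlap there either, but the change of 1.76 ± 0.60 missed the threshold (adjusted p = 0.0618), with healthy replicate 4 at 844 CPM in the same model. Without that library the quadriceps change was 1.73 ± 0.37 with an adjusted p of 0.017. In tibialis the wild-type libraries ranged from 266 to 443 CPM and the sick ones were at 402, 1108 and 378 CPM, so that 2 of 3 lay within the wild-type range (0.73 ± 0.33, adjusted p = 0.136).

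Plin2, which coats lipid droplets and whose upstream match is shown above, fell in 2 muscles. In gastrocnemius it was at 33.9, 26.5, 24.96 and 26.9 CPM in wild-type and at 13.5, 18.5 and 19.0 CPM in sick libraries, without overlap (-0.73 ± 0.19, adjusted p = 0.029). In tibialis it was at 26.5, 28.2, 36.3 and 24.9 CPM in wild-type and at 13.7, 19.6 and 13.3 CPM in sick libraries, again without overlap (-0.89 ± 0.22, adjusted p = 0.0221). The gastrocnemius call was lost without wild-type replicate 2 or any 1 sick library (adjusted p up to 0.128), and the tibialis call without sick replicate 1 (0.0609). The gastrocnemius call was also lost with the replicate block, in the models of the 2 states alone and of all 32 libraries and without the 4 libraries high in slow-fibre markers, and the tibialis call with the replicate block and in the model of all 32 libraries. In quadriceps the groups overlapped (-0.23 ± 0.47, adjusted p = 0.758). Plin5, the droplet protein that binds mitochondria, gave -0.05, 0.91 and -0.46 in gastrocnemius, quadriceps and tibialis, with adjusted p from 0.138 to 0.956.

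In the carnitine shuttle and its control, Mlycd was 93.9, 64.1, 70.3 and 59.6 CPM in wild-type and 114, 112 and 190 CPM in sick gastrocnemius. Every sick library was above every wild-type one (0.95 ± 0.22, adjusted p = 0.021), although the call was lost without wild-type replicate 2 or sick replicate 3 (up to 0.0801). In quadriceps, wild-type libraries were at 58.4, 56.6, 61.2 and 79.7 CPM and sick ones at 134, 159 and 88.5 CPM, without overlap (0.96 ± 0.24, adjusted p = 0.0239). That call was lost without sick replicate 2 or 3 or wild-type replicate 1, 2 or 3, and with the replicate block (up to 0.124). In tibialis the 3 sick libraries, at 116, 114 and 93.5 CPM, lay within the wild-type range of 65.4 to 118 CPM (0.34 ± 0.21, adjusted p = 0.252). Cpt2, the inner-membrane carnitine palmitoyltransferase, moved the other way in tibialis, from 89.1, 98.9, 116 and 61.1 CPM in wild type to 50.6, 52.9 and 51.8 CPM in the sick group. The groups did not overlap and the sick libraries were close to each other (-0.79 ± 0.18, adjusted p = 0.0181), a call kept without any 1 library and lost in the model of the 2 states alone (0.0538). Cpt2 gave -0.51 and -0.43 in gastrocnemius and quadriceps (adjusted p = 0.212 and 0.252). Cpt1a, the liver-type enzyme, gave -0.48, -0.46 and -0.69, Cpt1b 0.34, 0.04 and 0.04, and Slc25a20 0.30, 0.41 and -0.51 in the 3 muscles, and none passed the test (adjusted p from 0.0868 to 0.924).

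Of the 9 beta-oxidation enzymes, 0 were called in gastrocnemius and quadriceps and 4 fell in tibialis, while all 9 had a negative change there (-1.09 to -0.33, median -0.62). Hadhb, the beta subunit of the trifunctional protein, was at 271, 281, 427 and 199 CPM in wild-type and at 165, 122 and 172 CPM in sick tibialis (-0.91 ± 0.22, adjusted p = 0.0208). Its partner Hadha, which starts 85 bases away, gave -0.43 ± 0.18 with an adjusted p of 0.115. Garem2 overlaps exons of Hadha on the other strand, and whether the counting used strand is not given in the sources used here. Hadh, the short-chain hydroxyacyl-CoA dehydrogenase, went from 280, 253, 364 and 165 CPM to 152, 103 and 141 CPM without overlap (-0.98 ± 0.24, adjusted p = 0.0211). Both calls were lost without sick replicate 2, with the replicate block and in the model of the 2 states alone (adjusted p of up to 0.0787 for Hadh and 0.0766 for Hadhb over all alternatives).

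Eci1, an isomerase for unsaturated fatty acids, was at 146, 122, 215 and 68.5 CPM in wild-type and at 78.1, 44.1 and 62.4 CPM in sick tibialis, where 1 sick library overlapped wild-type replicate 4 (-1.09 ± 0.31, adjusted p = 0.0339). Acaa2, which makes the final cut of each round, was at 213, 192, 327 and 114 CPM and at 132, 64.9 and 95.9 CPM with the same overlap (-1.08 ± 0.33, adjusted p = 0.0396). Each of these 2 calls was lost without wild-type replicate 1, 2 or 3 or sick replicate 2 or 4 (adjusted p up to 0.14 for Eci1 and 0.162 for Acaa2). Both were also lost with no filter, with the replicate block and in the model of the 2 states alone, and Acaa2 in the model of all 32 libraries. The enzymes that did not pass in tibialis were Acadm (the medium-chain dehydrogenase) at -0.56, Acadl at -0.33, Acadvl (the very-long-chain dehydrogenase) at -0.41 and Decr1 (dienoyl-CoA reductase) at -0.62, with adjusted p from 0.0646 to 0.401. Acadl gave 0.73 ± 0.32 in gastrocnemius and 0.84 ± 0.38 in quadriceps, which did not pass (adjusted p = 0.142 and 0.135).

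The electron transfer flavoprotein, which takes electrons from the acyl-CoA dehydrogenases to the respiratory chain, had no call among its 3 genes. Etfa, Etfb and Etfdh gave -0.31, -0.71 and -0.45 in tibialis (adjusted p from 0.0843 to 0.269) and between -0.35 and 0.23 in the other muscles.

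In uptake and activation, 2 of 4 genes fell in tibialis. Fabp3 went from 259, 274, 512 and 112 CPM in wild-type to 119, 68.5 and 89.6 CPM in sick tibialis, where 1 sick library lay above wild-type replicate 4 (-1.50 ± 0.40, adjusted p = 0.0266). Acsl1, the main acyl-CoA synthetase of muscle, went from 476, 403, 399 and 307 CPM to 275, 196 and 257 CPM without overlap (-0.70 ± 0.18, adjusted p = 0.025). The Fabp3 call was lost without wild-type replicate 1, 2 or 3 or sick replicate 2 (up to 0.114), and the Acsl1 call without wild-type replicate 1 or 2 or sick replicate 2 (up to 0.0853). Both were also lost with the replicate block and in the model of the 2 states alone, Fabp3 with no filter and Acsl1 in the model of all 32 libraries. Cd36 and Lpl were not called in any muscle, with changes of 0.07 to 0.47 and -0.37 to 0.46. Fabp3 overlaps Gm10570 and Zcchc17, and Acsl1 overlaps Gm45244, each on the other strand.

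Among the 6 PPAR targets only the thioesterases were called. Acot1 was close to the detection limit in wild-type gastrocnemius, at 1.67, 0.877, 1.04 and 0.431 CPM (6 to 49 reads a library), and reached 3.55, 4.84 and 14.9 CPM in the sick group (49 to 129 reads), a log2 fold change of 2.54 ± 0.52 (adjusted p = 0.0125). The groups did not overlap, and the call was kept in all alternatives run. In quadriceps it was at 0.216 to 0.324 CPM in wild-type and at 2.88, 14.1 and 0.571 CPM in sick libraries (3.05 ± 0.997, adjusted p = 0.0553). In tibialis 2 of the 3 sick libraries, at 0.891 and 2.97 CPM, were above the wild-type range of 0.0773 to 0.76 CPM (1.94 ± 0.90, adjusted p = 0.142). Acot2, the mitochondrial thioesterase next to it on chromosome 12, was called in quadriceps, from 4.76, 4.61, 4.86 and 5.74 CPM to 12.7, 18.6 and 7.17 CPM without overlap (1.24 ± 0.36, adjusted p = 0.0389). This call was lost without sick replicate 2 or 3, without wild-type replicate 1, 2 or 3, under limma-trend, with the replicate block and without a filter (up to 0.188). Pdk4 gave 0.52, 1.12 and 0.40 (adjusted p = 0.414, 0.186 and 0.683), with 2525 CPM in sick tibialis replicate 2 against 783 CPM in replicate 1. In quadriceps its 3 sick libraries, at 1283, 1861 and 1540 CPM, were all above the wild-type range of 520 to 959 CPM, and without the brown-fat library the change was 1.09 ± 0.28 with an adjusted p of 0.0249. Angptl4, a secreted inhibitor of lipoprotein lipase, and the uncoupling proteins Ucp2 and Ucp3 gave changes of -1.29 to 0.55 without a call (adjusted p from 0.171 to 0.992).

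Of the receptors and coactivators, Ppargc1a, which encodes PGC-1alpha, was called in gastrocnemius. It was at 32.2, 36.2, 57.0 and 71.4 CPM in wild-type and at 85.5, 105 and 202 CPM in sick libraries, without overlap (1.40 ± 0.33, adjusted p = 0.021). The call was lost without wild-type replicate 2 or sick replicate 2 or 3 (up to 0.116) and without the 4 libraries high in slow-fibre markers. In quadriceps the sick libraries at 106, 233 and 47.5 CPM overlapped the wild-type range of 24.98 to 101 CPM (1.24 ± 0.54, adjusted p = 0.125), and in tibialis the change was 0.02 ± 0.17 (adjusted p = 0.933). Ppargc1b, its relative, had negative values of -0.86, -1.01 and -1.53 in the 3 muscles, none of which passed (adjusted p from 0.0984 to 0.166). Ppard gave 0.53, 0.40 and 0.52 (adjusted p = 0.0524, 0.119 and 0.11) and Ppara 0.74, 0.74 and -0.17 (0.344 to 0.856).

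**Figure D4:**
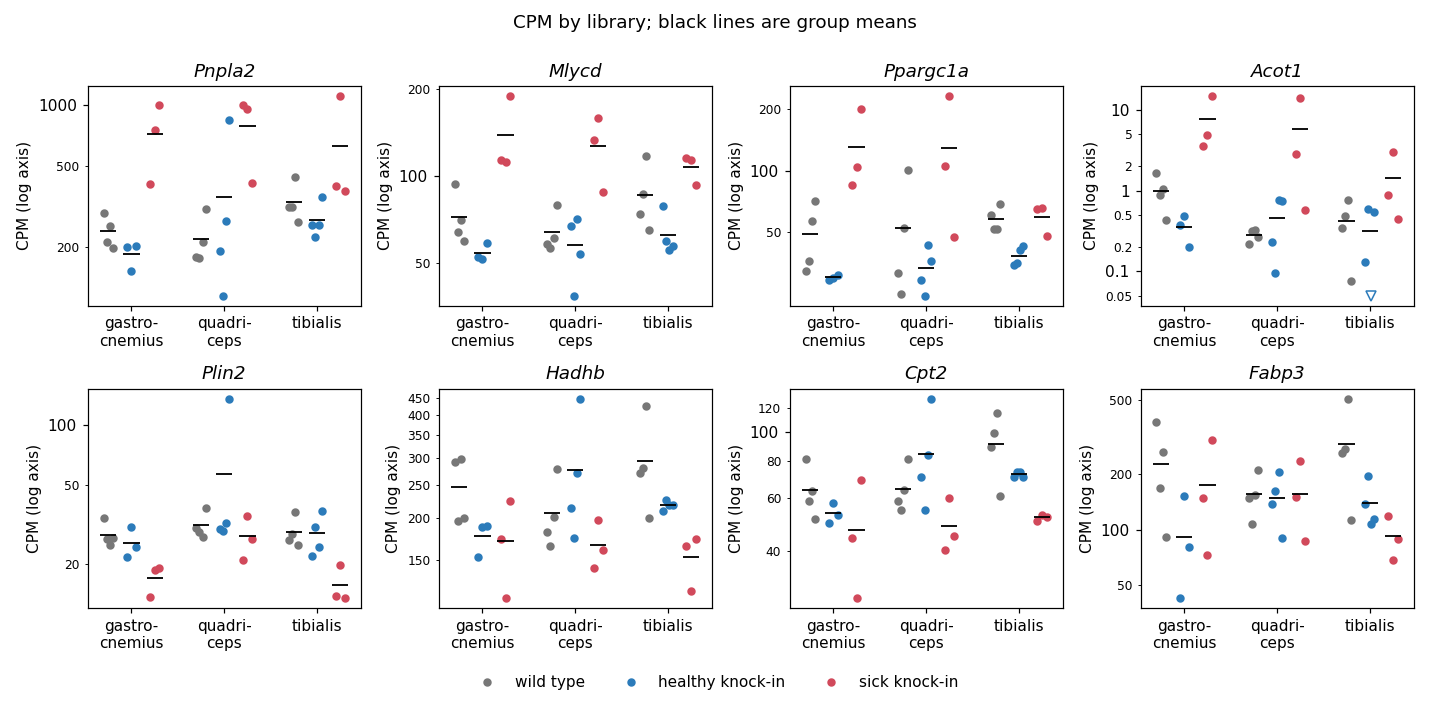
CPM of 8 called members in each library (points, log axis) with the group mean (line), by muscle and state; the open triangle marks a library with no Acot1 read. Pnpla2 in sick gastrocnemius (409 to 1002 CPM) lies above all wild-type libraries (200 to 296 CPM), and Cpt2 in sick tibialis (50.6 to 52.9 CPM) below all wild-type ones (61.1 to 116 CPM).

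The gastrocnemius values have the slow-fibre markers beside them. Their sums were 409 to 3416 CPM in wild-type, 89.6 to 2517 CPM in healthy and 400 to 7054 CPM in sick gastrocnemius. Leaving out the 4 libraries above 2000 CPM was a choice made after seeing the data. It leaves 1 sick library, so only log2 fold changes against wild type are given. Pnpla2 gave 1.77, Acot1 2.54 and Mlycd 0.79. Cpt2 (-1.06), Decr1 (-1.09), Hadh (-1.08) and Ucp3 (-0.88) were below 0, and 10 of 34 members were above 0 in place of 16. Other markers were counted as well. The shares of all genes called higher and lower were 8.22% and 6.52% in gastrocnemius and 10.5% and 7.49% in quadriceps. In tibialis they were 8.44% and 9.61%. In gastrocnemius 4 of 7 erythrocyte markers were called higher (summed 175 to 316 CPM against 82 to 164 in wild type), and in quadriceps 4 of 10 macrophage markers (357 to 509 against 179 to 281 CPM). The adipocyte sum in sick quadriceps was 1167 to 4084 CPM against 1360 to 1928 CPM in wild type. Of its 10 markers 0 were called higher, 1 lower and 1 was at an unadjusted p under 0.05. The list includes Car3, and the sum is no measure of fat: sick tibialis replicate 1 reached 2405 CPM with Adipoq at 0.594 CPM. Adipoq alone was at 3.15, 45.8 and 63.2 CPM in sick quadriceps against 20.65 to 36.8 CPM in wild type. In quadriceps 2 of 8 slow-fibre markers were called higher (median log2 fold change 3.25, 7 above 0), although their sums stayed at 73.5 to 218 CPM in sick against 95.3 to 116 CPM in wild-type libraries. In tibialis all 8 slow-fibre markers were below 0 (median -1.07, 1 called lower), and of the 10 general fibre markers 3 were called lower and 1 higher. In tibialis and quadriceps 1 of 10 endothelial markers was called lower, near the share of all genes. Transcripts of the mitochondrial genome took 8.28 to 12.3% of counts in sick and 13.4 to 15.5% in wild-type tibialis, 4.79 to 6.69% and 7.04 to 10.8% in quadriceps, without overlap in either, and 5.22 to 11.1% and 8.23 to 12.6% in gastrocnemius. The part of these transcripts in the members' values was not tested, and fewer cells of a type and less RNA per cell cannot be told apart.

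Sick knock-in libraries were also set against healthy knock-in libraries, which share the genotype and hold no excess of kidney transcripts in tibialis. These comparisons share the sick libraries with those above. In gastrocnemius 9 of 34 members were called higher, against 7.17% of all genes, and 0 lower, against 6.9%. This was a larger share of members than of genes, and the members' median was 0.63 (27 of 34 above 0) with a median of 0.01 over all genes. Beside Pnpla2 (1.89 ± 0.30, adjusted p = 0.00406), Ppargc1a (2.04 ± 0.35, 0.00528), Mlycd (1.33 ± 0.23, 0.00585) and Acot1 (3.997 ± 0.81, 0.0105), the calls were Pdk4, Acadl, Acot2, Lpl and Ppard. Pdk4 stood at 393, 311 and 196 CPM in healthy and at 746, 1114 and 2177 CPM in sick gastrocnemius, without overlap (2.11 ± 0.42, adjusted p = 0.00965). Acadl was at 103, 135 and 135 CPM and at 344, 246 and 515 CPM (1.54 ± 0.33, 0.0132), again without overlap. Lpl was at 296, 470 and 275 CPM and at 942, 545 and 895 CPM (1.21 ± 0.29, 0.0197), and Ppard at 32.5, 29.9 and 21.3 CPM and at 44.2, 43.5 and 48.8 CPM (0.73 ± 0.18, 0.022). Pdk4 in healthy libraries lay below all 4 wild-type libraries, which ranged from 656 to 1565 CPM. Ppargc1a in healthy libraries, at 29.11 to 30.99 CPM, also lay below all wild-type ones, at 32.21 to 71.38 CPM. So did Mlycd, at 51.51 to 58.94 against 59.6 to 93.88 CPM. For the other called genes healthy and wild-type libraries overlapped. Pnpla2 was at 154 to 203.5 against 199.8 to 296.2 CPM and Acot1 at 0.2021 to 0.4827 against 0.4308 to 1.667 CPM. Acadl was at 103 to 135 against 133 to 320 CPM and Lpl at 275 to 470 against 466 to 798 CPM. Acot2 was at 4.41 to 5.46 against 3.95 to 10.8 CPM and Ppard at 21.3 to 32.5 against 30.2 to 34.5 CPM. No member was called in healthy against wild-type gastrocnemius. Without 1 library 5 to 9 members were called, 5 without healthy replicate 3 or sick replicate 3. The calls of Pnpla2, Ppargc1a and Mlycd were kept in all alternatives run. That of Pdk4 was kept without any 1 library but lost with no filter and without the 4 libraries high in slow-fibre markers (up to 0.0722), and without those 4 Acadl, Acot2, Lpl and Ppard were not called either. That of Acot1 was lost without healthy replicate 3 (0.0544), of Acadl without healthy replicate 1 or sick replicate 3 (up to 0.164), of Lpl without healthy replicate 1 or 3 or sick replicate 3 (up to 0.087), of Ppard without healthy replicate 3 or sick replicate 2 or 3 (up to 0.102) and of Acot2 without any 1 healthy library or sick replicate 3 (up to 0.137). Ppard was also not called with no filter.

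In quadriceps, 2 of 34 were higher in sick than in healthy libraries, against 10.1% of all genes, and 0 lower, against 7.51%. These were Mlycd, at 67.5, 38.6, 71.2 and 53.9 CPM in healthy libraries (1.14 ± 0.24, adjusted p = 0.0146), and Ppard at 26.2, 31.04, 28.0 and 36.1 CPM (0.66 ± 0.18, 0.0309), and neither gene overlapped the sick values. No call was left without sick replicate 2 or 3, 1 was left without healthy replicate 3, and 5 were made without sick replicate 4, while the model of the 2 states alone called 0. Without the library rich in brown-fat transcripts, Pnpla2 (2.005 ± 0.39, 0.0144) and Pdk4 (1.92 ± 0.28, 0.00697) were called as well.

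In tibialis, 2 of 34 were higher, against 5.03% of all genes, and 1 lower, against 6.3%. Mlycd was at 78.8, 59.5, 55.4 and 57.5 CPM in healthy libraries, below all sick ones (0.78 ± 0.21, adjusted p = 0.0368), and Ppargc1a at 34.5, 35.5, 40.7 and 42.5 CPM, also below the sick values of 64.9, 65.3 and 47.8 CPM (0.62 ± 0.17, 0.038). Plin2 fell from 21.8, 30.7, 24.3 and 37.0 CPM (-0.86 ± 0.22, 0.0348). Of the 8 members that fell against wild-type tibialis, Plin2 was the 1 that also fell against healthy tibialis. The other 7 gave -0.57 to -0.20 with adjusted p from 0.102 to 0.55. The 3 calls are the least secure here: the count was 0 without sick replicate 1 or 2 or healthy replicate 2, 3 or 4, and 0 in the model of the 2 states alone.

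Mlycd was the member called higher against healthy knock-in in all 3 muscles. These calls are not independent repeats, as same-number libraries of a state deviated together across muscles (median correlation 0.425).

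**Figure D5:**
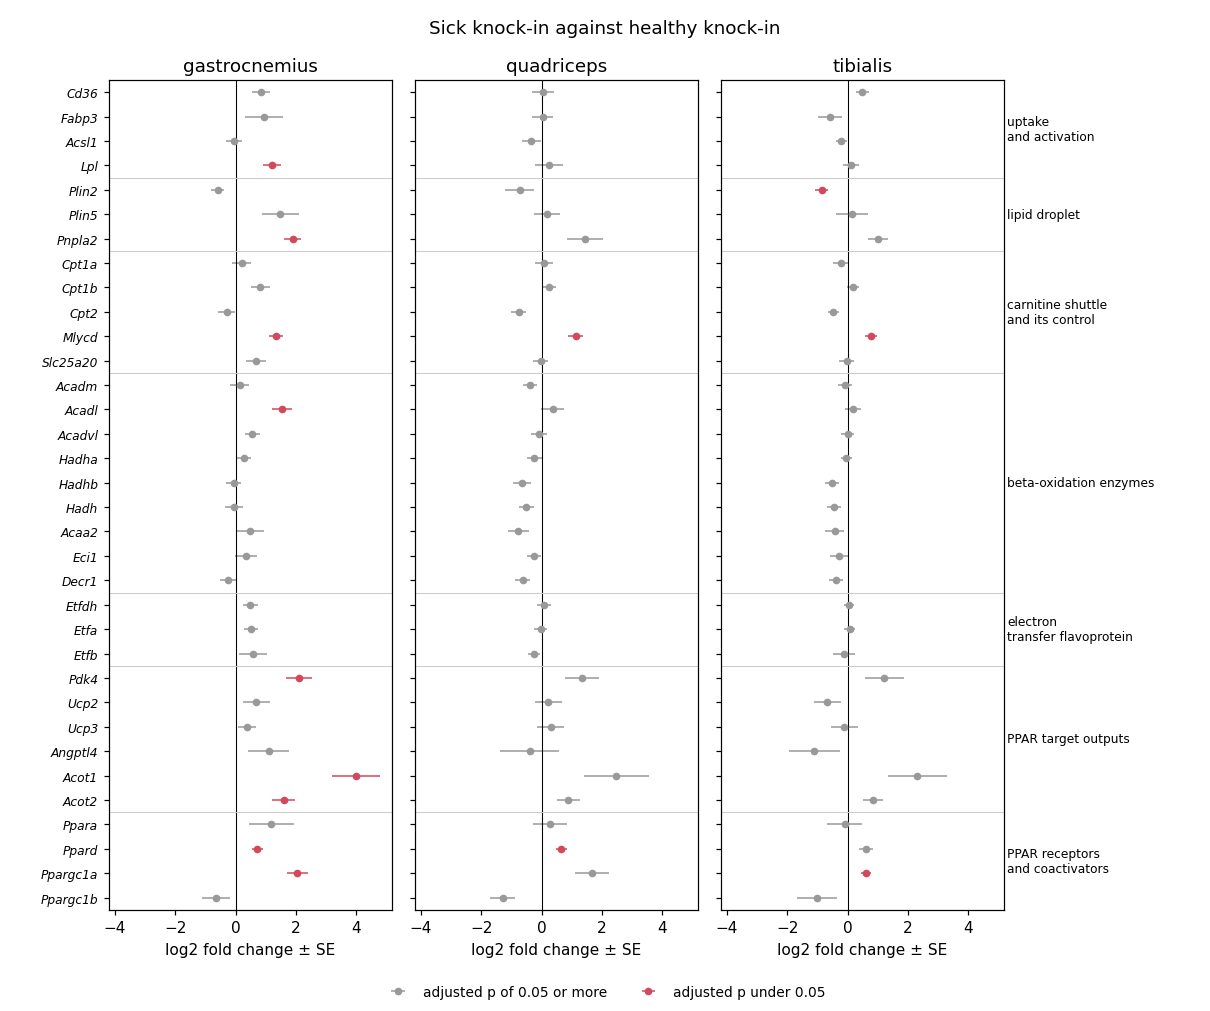
Log2 fold change with its standard error for each member, sick against healthy knock-in, in the 3 muscles; red points passed an adjusted p of 0.05. Mlycd is red in all 3 panels, and Plin2 lies left of 0 in each of them with a call in tibialis.

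Healthy knock-in muscle was compared with wild type to show what the mutation went with in mice not called sick. By limma-voom 0 of 34 members were called in gastrocnemius (0.00706% of all genes called, lowest adjusted p among members 0.522), in quadriceps (0.0362%, 0.999) and in tibialis (0.496%, 0.301), and limma-trend gave 0 in each as well. At an unadjusted p under 0.05 there were 7, 0 and 8 members, and the share of all genes at that threshold was not counted. In direction, all 34 members were below 0 in gastrocnemius (median -0.47, all genes -0.02) and all 34 in tibialis (median -0.47, all genes 0.01), while 26 of 34 were above 0 in quadriceps (median 0.28, all genes 0). Without the library rich in brown-fat transcripts the quadriceps values were 18 of 34 above 0 and a median of 0.06. In gastrocnemius the lowest adjusted p among members, 0.522, was that of Pdk4 at -1.59 ± 0.39 and of Ucp3 at -0.97 ± 0.28. Ppargc1a in tibialis had wild-type libraries at 51.6 to 68.9 CPM and healthy ones at 34.5 to 42.5 CPM without overlap, and gave -0.60 ± 0.15 with an adjusted p of 0.301. Members are measured in the same libraries and tend to be high or low together: in quadriceps healthy replicate 4 was highest of its group for 29 of 34 members, and healthy replicate 2 was lowest for 26.

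Whether the sick change differed between muscles was tested in 1 model of all 32 libraries. No member passed for quadriceps against gastrocnemius (0% of 15229 genes called, 0 members at an unadjusted p under 0.05), tibialis against gastrocnemius (0.204%, 2 members) or tibialis against quadriceps (0.243%, 4 members), and limma-trend gave 0 in each as well. Same-number libraries of a state deviated together across muscles (26 of 28 pairs above 0.1, median correlation 0.425), and with state and replicate number as a block each of these counts was also 0. The lowest unadjusted p-values were for Ppargc1a, at -1.37 ± 0.57 in tibialis minus gastrocnemius (unadjusted p = 0.0236, adjusted p = 1), and for Eci1, at -1.12 ± 0.47 in tibialis minus quadriceps (0.0234, adjusted p = 0.599). All 34 members had a lower change in tibialis than in gastrocnemius (median -0.49) and 32 of 34 a lower one than in quadriceps (median -0.70). The falls in tibialis and the rises in gastrocnemius are thus calls within each muscle, and no member passed the test of a difference between muscles.

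The authors' deposited table, made with a model of their own, gave 4 members higher and 0 lower in sick against wild-type gastrocnemius, 5 and 0 in quadriceps, and 1 and 6 in tibialis at their adjusted p under 0.05. The share of all genes called in that table was not counted, so these counts have no background beside them. All 4 of its gastrocnemius members, 2 of its 5 in quadriceps and 6 of its 7 in tibialis were also called here in the same direction. In the authors' deposited table Pnpla2 had a log2 fold change of 1.83 in quadriceps with an adjusted p of 0.00306, and Acot1 4.34 with 6.22e-05. Plin2, called lower here in 2 muscles, did not pass there in gastrocnemius (-0.71, adjusted p = 0.228) or tibialis (-0.91, adjusted p = 0.0784). The same table called no member in healthy knock-in against wild type in any muscle.

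Other genes of the pathway were counted from lists fixed with the design. Of all genes, 8.22% were called higher and 6.52% lower in gastrocnemius, 10.5% and 7.49% in quadriceps, and 8.44% and 9.61% in tibialis. No list was tested as a set, and counts near these shares are not read as results. Calls shared by muscles, here and in the next paragraphs, are not independent repeats, as same-number libraries of a state deviated together across muscles. Of 15 other mitochondrial beta-oxidation genes, 4 rose in gastrocnemius and 4 in quadriceps with none falling, and 2 rose and 1 fell in tibialis. Of the peroxisomal genes 1 of 13 tested rose and 1 fell in gastrocnemius, 2 of 13 fell in quadriceps and 4 of 15 fell in tibialis. Of 20 genes of carnitine and acyl-CoA handling, 5 rose and 1 fell in gastrocnemius, 3 rose in quadriceps, and 2 rose and 4 fell in tibialis. Acacb, the mitochondrial acetyl-CoA carboxylase that makes malonyl-CoA and so opposes Mlycd, rose in all 3 muscles (1.08 ± 0.26, 1.03 ± 0.29 and 0.85 ± 0.22, adjusted p = 0.0211, 0.0345 and 0.025). Its sick libraries were at 461 to 758 CPM in gastrocnemius against 203 to 345 CPM in wild type, without overlap. Acot4, another thioesterase and a near copy of Acot1 and Acot2, rose in gastrocnemius (1.54 ± 0.40, 0.0287) and quadriceps (2.07 ± 0.39, 0.0113). Acot11 fell in gastrocnemius (-1.61 ± 0.42, 0.0285) and tibialis (-1.53 ± 0.31, 0.0101).

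Of 17 genes of the lipid droplet and lipolysis, 1 rose and 1 fell in gastrocnemius, 1 rose and 2 fell in quadriceps, and 2 rose and 5 fell in tibialis. G0s2, whose product inhibits the lipase encoded by Pnpla2, was at 7.84, 7.68, 12.7 and 6.26 CPM in wild-type and at 1.63, 3.06 and 2.04 CPM in sick quadriceps (-2.08 ± 0.60, adjusted p = 0.0377). In tibialis it was at 25.3, 35.1, 68.7 and 13.8 CPM and at 13.4, 0.657 and 1.06 CPM, so that all sick values were below all wild-type ones in both muscles (-3.95 ± 1.03, 0.0248). In gastrocnemius the sick value of 10.22 CPM in replicate 1 lay among the wild-type values (-1.84 ± 0.81, 0.14). Plin4, another droplet coat protein, rose from 216 to 406 CPM in wild-type to 1016 to 1133 CPM in sick gastrocnemius (1.77 ± 0.28, 0.00514), and from 260 to 352 to 761 to 1434 CPM in tibialis (1.77 ± 0.46, 0.0243). In quadriceps it was not called, although the sick libraries, at 1386, 932 and 663 CPM, lay above the wild-type range of 314 to 463 CPM. Healthy replicate 4, in the same model, was at 908 CPM. Fitm1, which acts in droplet formation, fell in all 3 muscles (-1.198, -0.91 and -1.25 on the log2 scale, adjusted p = 0.0391, 0.0199 and 0.015).

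Of 23 PPAR partners and regulators, 4 rose and 6 fell in gastrocnemius, 4 rose and 2 fell in quadriceps, and 9 rose and 3 fell in tibialis. Sirt1, a deacetylase that acts on PGC-1alpha, rose in all 3 muscles (1.01 ± 0.22, 0.89 ± 0.22 and 1.06 ± 0.19, adjusted p = 0.0157, 0.0216 and 0.00758). Prkag3, the gamma subunit of AMP-activated protein kinase found in fast fibres, fell from 45.9 to 176 CPM in wild-type to 11.3 to 30.5 CPM in sick gastrocnemius (-2.67 ± 0.46, 0.00747) and from 95.7 to 224 to 8.20 to 56.5 CPM in quadriceps (-2.95 ± 0.54, 0.0113). Of 10 genes of pyruvate dehydrogenase and its regulators, 1 fell in gastrocnemius, 1 fell in quadriceps, and 3 fell and 1 rose in tibialis. Of 5 ketone body enzymes, 1 fell in gastrocnemius and quadriceps and 3 in tibialis. Oxct1, which activates acetoacetate for use as fuel, fell in every muscle (-1.05 ± 0.30, -1.20 ± 0.24 and -1.23 ± 0.32, adjusted p = 0.0406, 0.013 and 0.0231), and its sick libraries, at 97.8 to 260, 131 to 231 and 89.0 to 272 CPM, lay below all wild-type ones of the same muscle. Of these genes' calls, those of Plin4 and Prkag3 in gastrocnemius and of Sirt1, Fitm1 and Acot11 in tibialis were kept without any 1 library. Each of the others was lost without at least 1 library, the gastrocnemius call of Oxct1 for 6 of 7 libraries (adjusted p up to 0.138) and the quadriceps call of G0s2 for 6 of 7 (up to 0.216).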

How the data were processed

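The authors deposited 1 table with a raw count of reads per gene and library, the same values after scaling, and their own log2 fold changes and adjusted p-values per comparison, per the file headers. The build GRCm38 and the programs cutadapt 1.18, TopHat2 2.1.1, DESeq2 1.22.1 and HTSeq 0.6.0 are named, per the submitters' processing notes; the strand setting is not given in the sources used here. Because 6252 genes carry a missing-value mark in place of a count, no count model was run, and limma-voom (limma 3.58.1, R 4.3.3) was used for all tests. A gene entered a test if it reached the CPM that equals 10 counts at median depth in at least the number of libraries of the smallest group, and 15 counts in all. Totals were scaled by trimmed means of M values (trims 0.3 and 0.05), 0.5 was added to each count, and 1 robust model held the 3 states of a muscle (or the 12 wild-type libraries, or all 32). P-values were adjusted by Benjamini-Hochberg over all genes of a comparison, with 0.05 as threshold, and all adjusted p-values of this text that are not the authors' come from limma. The script was tested on simulated data. CPM are on the scaled totals; levels per kilobase use exon lengths from GENCODE vM21 (54809 identifiers found).

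The members and gene lists were chosen with earlier results of these data known. Per library values are given for members past 0.05 in sick against wild type in at least 1 muscle or with a change that differed between muscles. Those of Pdk4, Acadl, Lpl and Ppard are given as well, a choice made after their values were seen. Other genes are named if past 0.05 with a log2 fold change of at least 1 in the same direction in 2 muscles or more. Libraries with the same replicate number were checked for pairing by the correlation of their deviations from the group means. Across states of a muscle it was -0.174 to 0.257 over 29 pairs (6 above 0.1), so the states are not paired. In wild type all 4 same-number pairs were above 0.1 between quadriceps and tibialis (0.215 to 0.451) and between quadriceps and gastrocnemius (0.267 to 0.534), so a block by number is given there as a second result (0 calls in the latter either way); between tibialis and gastrocnemius 2 of 4 were. Alternatives were another scaling, no filter, limma-trend, a replicate block, other sets of libraries and leaving out each library.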

Additional observations from a re-analysis of the deposited data

Results flagged for a closer look

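Over 170 combinations of a member and a group of 4 libraries, 13 had a library far from the others by Dixon's test at 95%, and chance flags about 1 in 20 groups. In healthy quadriceps, replicate 4 was the high value for 5 members: Pdk4 at 2053 CPM (others 290 to 570), Ucp2 at 110 (24.8 to 37.7), Ucp3 at 348.5 (81.2 to 115), Angptl4 at 158 (6.65 to 8.77) and Plin2 at 137 (29.3 to 32.05). This is the library with 432 CPM of Ucp1, and the part of those transcripts in the 5 values was not tested. In healthy tibialis, replicate 4 had Ucp3 at 407 CPM (104 to 145), without such transcripts (Ucp1 at 0), and replicate 2 had Acadvl at 173 (156 to 158) and Decr1 at 115 (104 to 106).

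In wild-type quadriceps, replicate 4 was high for Lpl at 1058 CPM (392 to 410) and Ppara at 20.6 (3.70 to 6.17), and replicate 1 was low for Ucp3 at 114 (182 to 193). In wild-type gastrocnemius, replicate 3 was high for Ucp2 at 61.8 CPM (36.3 to 40.5) and replicate 1 low for Ucp3 at 123 (202 to 215).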

How the results depend on the processing

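Counts of called members depended on the setting in quadriceps and tibialis. They are given without the share of all genes called in the same setting. In sick against wild-type quadriceps (2 called) there were 1 with no filter, 0 with the replicate block, 6 in a model of the 2 states alone, 5 in a model of all 32 libraries and 4 without the library high in brown-fat transcripts (added after seeing the data). In sick against healthy quadriceps (2) there were 1 with no filter, 4 with limma-trend, 0 for the 2 states alone, 5 for all 32 libraries and 4 without that library. In sick against wild-type tibialis (8) there were 5 with no filter, 1 with the replicate block and 1 for the 2 states alone, and in sick against healthy tibialis (3) 1, 0 and 0. Wild-type tibialis against quadriceps (2) gave 6 with the replicate block and 4 in the model of all 32 libraries, and tibialis against gastrocnemius (0) gave 1 with no filter. The cause was not tested.

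Leaving out 1 library gave 2 to 6 calls for sick against wild-type gastrocnemius, 0 to 7 for quadriceps and 2 to 15 for tibialis. Against healthy knock-in the ranges were 5 to 9, 0 to 5 and 0 to 4, and for wild-type tibialis 0 to 13 against quadriceps and 0 to 3 against gastrocnemius. Over 31 calls of single members and 412 alternative values, 273 kept the call, 139 lost it and 0 changed direction. Scaling by median-of-ratios left every count within 1.5 times. Same-number libraries of a muscle are not paired, so the replicate block within a muscle is only another model. Depth limits Acot1, with 0 to 129 reads a library.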
